A study of Mus musculus with 28 samples.

Results

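The inhibitory transmitter system of the mouse hippocampus was followed through 26 genes that encode GABA receptor subunits, the enzymes and carriers that make, load and break down GABA, chloride cotransporters, proteins of the inhibitory synapse and regulators of GABA neurons. Members were the genes of a fixed list that had a probe set (a group of array probes for 1 transcript region) with a single gene symbol. All 26 were found, on 28 probe sets, among 19938 genes on 21789 such probe sets. They comprised 9 synaptic or other GABA-A subunits, 3 extrasynaptic subunits, 2 rho subunits, 2 GABA-B subunits, 3 genes of synthesis and vesicle loading, 1 of breakdown, 2 chloride cotransporters, 2 of scaffold and adhesion and 2 of interneuron development and signalling.

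RNA from the hippocampus of C57BL/6J mice was measured on 28 Affymetrix Mouse Gene 1.0 ST arrays. The mice were wild type, G/G (called fosB-null below) or d/d, which lacks the FosB protein. Young mice of 10 weeks had received saline or kainate (KA, a glutamate receptor agonist that provokes seizures), with 3 arrays for each of the 6 combinations. Aged mice of 64.7 to 71 weeks were wild type (3 arrays), epileptic fosB-null (3), non-epileptic fosB-null (2) and fosB d/d (2), and all but the epileptic group are labelled non-epileptic. The fosB gene encodes transcription factors of the AP-1 family. Which of its products each allele still makes is given in the labels only as above. How long after KA the tissue was taken is not in the labels.

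GABA opens chloride channels built from GABA-A subunits and activates the G protein-coupled GABA-B receptor. Synaptic GABA-A receptors respond briefly to released GABA, while extrasynaptic receptors that hold the delta or alpha-5 subunit carry a tonic current, the former above all in dentate granule cells. Glutamate decarboxylases (Gad1 and Gad2) make GABA, the vesicular carrier Slc32a1 loads it, and the transaminase Abat degrades it. Whether an open channel inhibits depends on neuronal chloride, which Slc12a5 exports and Slc12a2 imports.

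Values are log2 signals after quantile normalization, so a difference of 1 is a 2-fold change, and levels of different genes were not compared because probes differ in brightness. The median of the deposited arrays ran from 7.95 to 8.43. It was 8.33 to 8.43 in replicates 2 and 3 of wild type KA and of all young saline groups, and 8.05 to 8.11 in the other young arrays. In the aged mice it was 7.95 to 7.99 in fosB d/d and in non-epileptic fosB-null against 8.05 to 8.15 in the other aged arrays. Replicates correlated at 0.986 to 0.998. Fosb itself had group means of 8.20 to 9.18 in young mice, lowest in fosB-null KA and highest in fosB d/d saline; which part of the transcript its probes cover was not stated, so this level does not check the alleles. Labels were at odds in 3 respects. For fosB d/d given saline, 1 label mentions kainate, and mice labelled 10 weeks old appear as 14 months old in a protocol. Every mouse is labelled female, yet the mean of 3 Y-linked genes was 9.53 to 10.0 in the young and 5.19 to 5.50 in the aged arrays. The mean signal of 5 dentate granule cell markers was 9.41 to 10.37 and that of 5 pyramidal cell markers 10.48 to 10.83. The replicates are labelled biological, and p-values measure the spread between these arrays.

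Promoters were searched for the AP-1 motif TGANTCA, the sequence that dimers of Fos and Jun proteins bind, in the 250 bases before each start listed by RefSeq for GRCm38.p6. The table held 30 starts of 23 members. The motif, read on both strands, was found at 2 of these 30 starts and at 6.75 percent of all 32851 starts in the table. The cyclic AMP response element TGACGTCA, which shares no match with it, was at 0 of the 30 member starts and at 1.55 percent of all starts. Both member matches are shown because a gene of AP-1 factors is altered in these mice; the match is in capitals, and the sequence reads 5′ to 3′ toward the start. For Lhx6 it lies at chr2:36105409-36105658 on the minus strand, with the match beginning 181 bases before the start. For Slc12a5 it lies at chr2:164960596-164960845 on the plus strand, with the match beginning 162 bases before the start.
Lhx6: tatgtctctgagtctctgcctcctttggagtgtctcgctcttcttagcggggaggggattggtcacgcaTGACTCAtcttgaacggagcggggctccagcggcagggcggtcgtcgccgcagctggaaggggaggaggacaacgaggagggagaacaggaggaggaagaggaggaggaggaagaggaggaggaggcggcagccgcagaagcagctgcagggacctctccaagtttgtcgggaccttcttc
Slc12a5: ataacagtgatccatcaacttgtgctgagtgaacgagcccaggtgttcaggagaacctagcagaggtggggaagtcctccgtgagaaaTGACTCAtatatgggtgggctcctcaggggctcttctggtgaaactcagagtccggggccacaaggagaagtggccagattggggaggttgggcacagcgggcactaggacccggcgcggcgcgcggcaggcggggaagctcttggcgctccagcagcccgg
A match describes these letters only, and each of these genes has other listed starts (3 for Lhx6 and 2 for Slc12a5 in all) that lack one.

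In wild type mice KA lowered 5 members and raised 1. Erbb4, Gabrd, Slc12a5, Abat and Gabrg1 fell and Gad2 rose, at a Benjamini-Hochberg adjusted p under 0.05 in limma, a linear model with moderated variances fitted over all genes. Of the 26 members 6 passed, 23.1 percent, beside 6.9 percent of the 19938 genes tested (3.48 percent rose and 3.42 percent fell). The median difference was -0.09 for the members and 0.01 for all genes, and 19 of the 26 members were below 0, 73.1 percent, against 48.5 percent of all genes. At an unadjusted p under 0.05 there were 9 members, beside 20.3 percent of all genes. Arrays of saline and KA did not overlap for 9 members, 34.6 percent beside 22.3 percent of all genes; 1 was higher (10.8 percent of all genes) and 8 were lower (11.5 percent). The count of passing members was 3 without wild type KA replicate 3 and 3 on the scale as deposited. It was 2 in a fit of the compared groups alone. Over all genes these settings gave 1013, 511 and 503 calls, against 1375 in the main fit. The members were chosen with results of these data known, so these shares are a description. In bulk tissue, fewer cells of a type and less RNA per cell cannot be told apart.

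Among the extrasynaptic subunits the change was in Gabrd, the delta subunit that confers tonic inhibition. On the wild type saline arrays Gabrd was at 9.28, 9.17 and 9.24, and on the wild type KA arrays at 8.75, 8.61 and 8.54. The lowest saline array lay well above the highest KA array. The difference was -0.60 (standard error, SE, 0.10, n = 3 against 3, limma adjusted p = 0.00133), a 1.51-fold lower signal.

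Gabra4 encodes the alpha subunit that pairs with delta in dentate granule cells. It was at 11.42, 11.53 and 11.47 with saline and at 11.05, 11.36 and 11.29 with KA, without overlap. The difference of -0.25 (SE 0.08) did not pass (limma adjusted p = 0.0736), although it did without wild type KA replicate 2, at -0.31 (limma adjusted p = 0.0475). Without replicate 1 of that group, the lowest array, the difference was -0.15 (adjusted p = 0.239). Gabra5, the alpha subunit of tonic receptors on pyramidal cells, differed by -0.16 (95% interval -0.43 to 0.10) with overlapping arrays.

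Markers of dentate granule cells were examined in the same comparison, with a list median of -0.23. Of 5 such markers 3 fell and 0 rose in wild type KA, with -1.72 for Tdo2, -0.67 for Dsp and -0.23 for Prox1. The call of Prox1 (limma adjusted p = 0.0428) held under 6 of 15 other settings. On this scale no marker has a value of 0. Their mean signal was 9.98 to 10.08 on the saline arrays and 9.41 to 9.46 on the KA arrays. Of 5 pyramidal cell markers 0 passed, with a median of -0.14. Of 5 pan-neuronal markers 0 passed, with a median of -0.09. Of 4 oligodendrocyte markers 1 fell, Cnp at -0.54 (limma adjusted p = 0.00138), with a median of -0.41 for the list. Their mean signal was 11.77 to 12.10 with saline and 11.39 to 11.68 with KA. Of 5 thalamus markers 1 fell, with a list median of -0.04. Their mean signal was 9.41 to 9.50 with saline and 9.16 to 9.39 with KA. Of 5 cerebellar granule cell markers 1 fell, with a list median of -0.06. Their mean signal was 8.78 to 8.93 with saline and 8.60 to 8.78 with KA. The part of these marker shifts in the values of the members that fell was not tested.

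Among the other GABA-A subunits Gabrg1, a gamma subunit, had the largest difference of the 26 members and also the largest spread. It was at 9.45, 9.11 and 9.08 with saline and at 8.66, 7.91 and 8.44 with KA. Every KA array was below every saline array, but replicate 1 was the highest in both groups. The difference was -0.87 (SE 0.25, limma adjusted p = 0.0487), a 1.83-fold lower signal, and this call held in 1 of the 6 fits that each left out 1 array (adjusted p = 0.0405 to 0.218).

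None of the other 8 subunits of that class passed. The alpha subunits gave 0.01 for Gabra2 and -0.32 for Gabra3 (95% interval -0.62 to -0.02, adjusted p = 0.22). The beta subunits, which form the GABA binding site with alpha subunits, gave 0.03 for Gabrb1 and -0.09 for Gabrb2, whose 3 probe sets gave -0.18, -0.09 and -0.13. Gabrg3, another gamma subunit, gave -0.04.

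Gabra6, Gabre and Gabrq, subunits known mainly from cerebellum, brainstem and hypothalamus, were among the dimmest 30 percent of genes here, as was the rho subunit Gabrr1. Their signals lay between 6.06 and 7.61 on all 28 arrays. Gabra6 differed by -0.31 (95% interval -0.77 to 0.14) without overlap of the arrays, Gabre by 0.13 and Gabrq by -0.07. The rho subunits, which form channels best known from the retina, differed by -0.02 (Gabrr1) and -0.07 (Gabrr2).

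Neither subunit of the metabotropic receptor passed. Gabbr1, the subunit that binds GABA, differed by 0.02 in wild type (95% interval -0.13 to 0.16). Gabbr2, the subunit that couples to G proteins, differed by -0.13 (-0.25 to -0.01, adjusted p = 0.205) without overlap. Over all 10 groups the means of Gabbr2 spanned 0.14, the smallest span among the 26 members, while those of Gabrg1 spanned 1.05.

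Of the genes that make GABA, Gad2 rose and Gad1 and the carrier Slc32a1 did not pass. Gad2, the decarboxylase bound to synaptic vesicles, was at 11.30, 11.37 and 11.35 on the saline arrays and at 11.58, 11.66 and 11.82 on the KA arrays. All KA arrays were above all saline arrays. The difference was 0.34 (SE 0.08, limma adjusted p = 0.0131), a 1.27-fold higher signal; without wild type KA replicate 3, the highest array, it was 0.28 (adjusted p = 0.066). It also did not pass on the scale as deposited (0.28, adjusted p = 0.324), with median centring (0.26, adjusted p = 0.0662) or in a fit of the compared groups alone (adjusted p = 0.109).

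Gad1, the decarboxylase spread through the cell, was at 11.74, 11.63 and 11.55 with saline and at 11.66, 11.44 and 11.55 with KA, and the groups overlapped. Its difference was -0.09 (95% interval -0.27 to 0.08). Slc32a1 was at 9.43, 9.32 and 9.16 with saline and at 9.30, 9.12 and 9.19 with KA, and its difference was -0.10 (-0.34 to 0.14). The interval of Gad2, 0.18 to 0.51, lay above both, but a difference between the 3 genes was not tested.

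Abat, the transaminase that begins GABA breakdown, was at 12.04, 12.08 and 12.03 with saline and at 11.79, 11.67 and 11.78 with KA. The arrays did not overlap. The difference of -0.30 (SE 0.08, limma adjusted p = 0.037) was a 1.23-fold lower signal, but it passed in 0 of the 6 fits that each left out 1 array (adjusted p = 0.0574 to 0.142). Abat is expressed in astrocytes as well as neurons. Of 5 astrocyte markers 2 rose (Gfap by 1.56 and Aqp4 by 0.77) and 1 fell (Gja1, at -0.98), and their mean signal was 11.01 to 11.12 with saline and 11.26 to 11.40 with KA. The part of these markers in the Abat and Gabrg1 values was not tested.

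Of the chloride cotransporters the exporter Slc12a5 fell in wild type and the importer Slc12a2 did not pass. Slc12a5 was at 11.95, 11.93 and 11.94 on the saline arrays and at 11.51, 11.53 and 11.65 on the KA arrays. The saline arrays lay close together and clear of all KA arrays. The difference was -0.38 (SE 0.07, limma adjusted p = 0.00414), a 1.30-fold lower signal, and it passed in all 6 fits that left out 1 array, though not in a fit of the 2 compared groups alone (adjusted p = 0.0588). Slc12a2 differed by 0.01 (95% interval -0.28 to 0.31).

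Slc12a2 moved between arrays with markers of the choroid plexus, an epithelium beside the hippocampus that also expresses this cotransporter. On the wild type saline arrays the mean of 5 choroid markers was 9.65, 8.80 and 11.04, and Slc12a2 was at 10.55, 10.52 and 11.08. On the wild type KA arrays the markers were at 11.09, 10.81 and 10.06, and Slc12a2 at 10.86, 10.83 and 10.49. In both groups the arrays lowest and highest for the markers were also lowest and highest for Slc12a2. The lowest arrays were not the same in aged wild type, young fosB-null KA and young fosB d/d KA. In aged wild type the lowest marker mean, 8.63, went with Slc12a2 at 10.78, and a marker mean of 8.85 with 10.51. In the remaining groups the lowest and highest arrays were the same for both. Over the 28 arrays the marker mean ran from 8.60 to 11.26. Its part in any Slc12a2 difference was not tested.

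**Figure D1:**
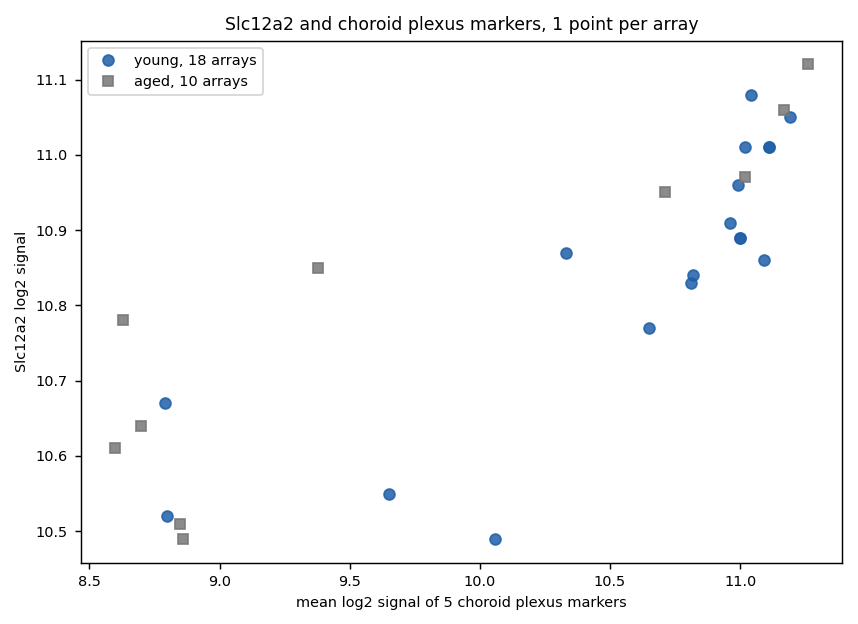
Log2 signal of the chloride importer Slc12a2 (vertical axis) against the mean log2 signal of 5 choroid plexus markers (horizontal axis), 1 point per array, circles for the 18 young and squares for the 10 aged arrays. Arrays with a marker mean of 10.65 or more have Slc12a2 at 10.77 or higher, and the lowest Slc12a2 values, 10.49 to 10.55, belong to arrays with a marker mean of 10.06 or less.

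Of the synapse genes neither passed. Gphn encodes gephyrin, the scaffold that anchors GABA-A receptors, and differed by -0.11 (95% interval -0.26 to 0.04). Nlgn2, the neuroligin of inhibitory synapses, differed by 0.07 (-0.29 to 0.43). Its replicate 1 was the lowest array in both groups, at 11.22 with saline and 11.33 with KA against 11.63 to 11.77 on the others.

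Erbb4 had the smallest p of the 26 members. It encodes the neuregulin receptor that interneurons carry at high level. It was at 11.26, 11.43 and 11.44 on the wild type saline arrays and at 10.68, 10.74 and 10.97 on the KA arrays, with a clear gap. The difference was -0.58 (SE 0.08, limma adjusted p = 0.000448), a 1.49-fold lower signal, and it passed in all 6 fits that left out 1 array (-0.66 to -0.52).

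Lhx6, a transcription factor of interneurons that arise in the medial ganglionic eminence, differed by -0.02 (95% interval -0.32 to 0.27). Among 24 further interneuron markers 1 rose and 3 fell in wild type KA, with a median of -0.14. Of all genes 3.48 percent rose and 3.42 percent fell, with a median of 0.01. Npy, a neuropeptide that granule cells also make after seizures, rose by 0.81 (SE 0.14, limma adjusted p = 0.00243). Vip fell by 0.41, Lamp5 fell by 0.51 and Satb1 fell by 0.43 (limma adjusted p = 0.0138, 0.017 and 0.0102). Each of these 3 calls was lost under 4 or 5 of 15 other settings. The mean signal of the 24 markers was 9.75 to 9.81 with saline and 9.64 to 9.71 with KA, and its part in the Erbb4 and Gad2 values was not tested.

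**Figure D2:**
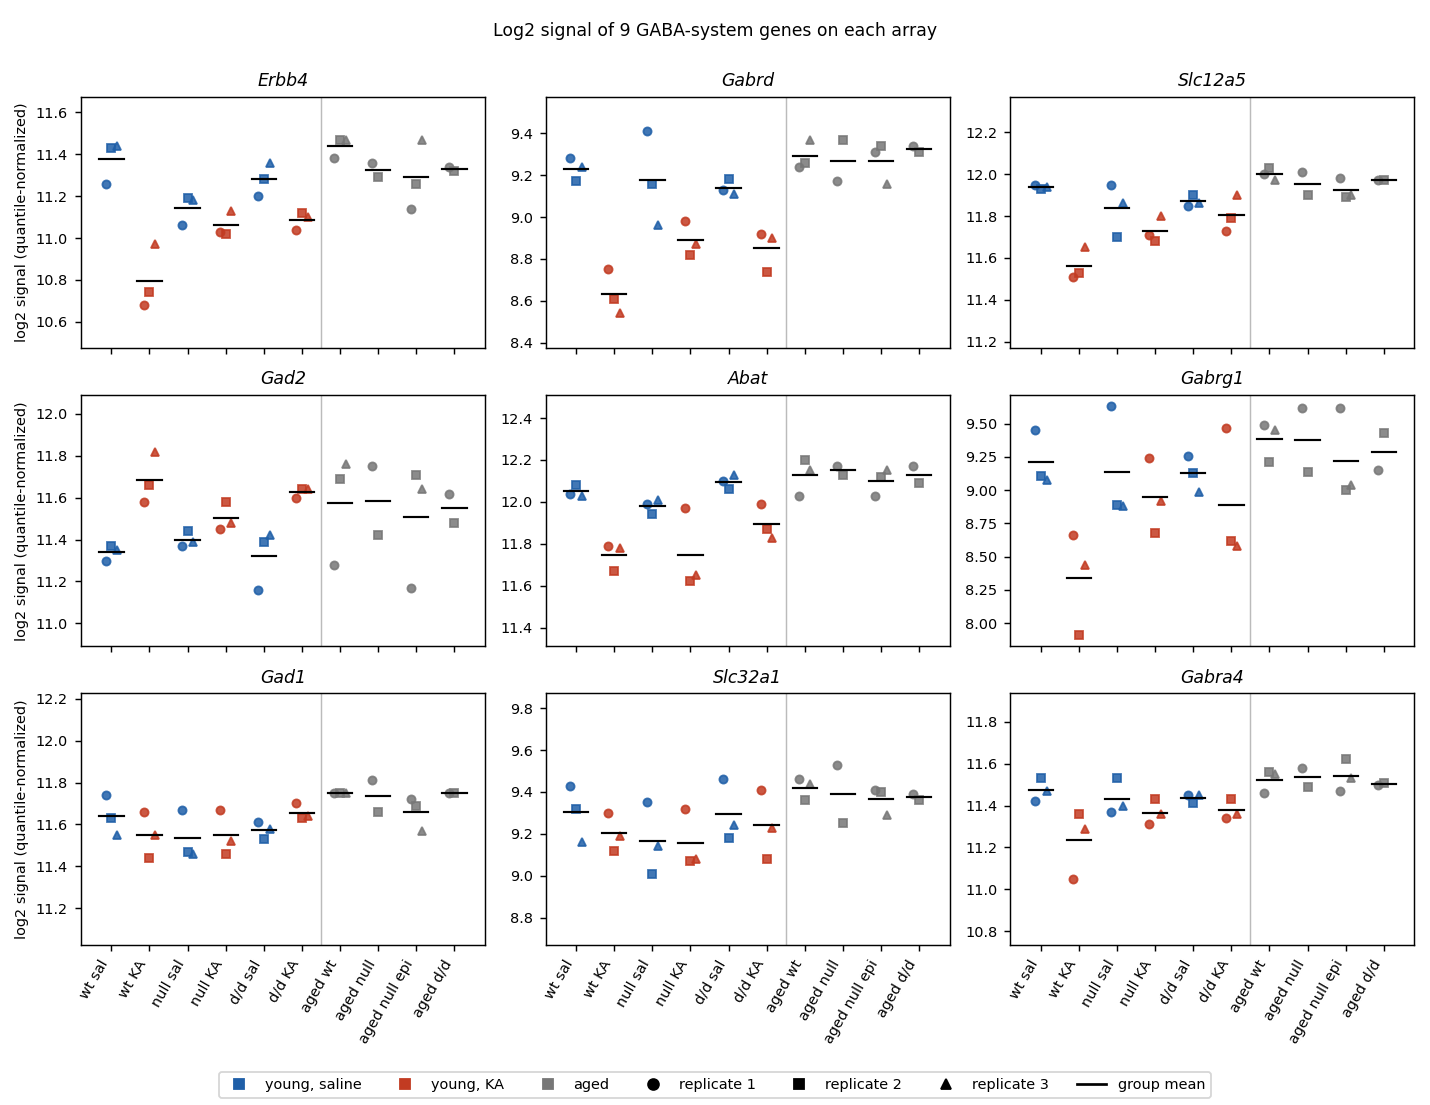
Log2 signal of 9 members (vertical axes, quantile-normalized, each panel with its own range) on every array of the 10 groups (horizontal axis), with blue for young saline, red for young KA, grey for aged, a marker shape for each replicate and a bar for the group mean. The wild type KA arrays are the lowest young group for Erbb4 (10.68 to 10.97), Gabrd (8.54 to 8.75) and Slc12a5 (11.51 to 11.65), and Gad1 and Slc32a1 overlap in every young pair of saline and KA except Gad1 in fosB d/d.

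The remaining genes of GABA signalling, 37 measured of 40 listed, included receptor trafficking factors, GABA-B auxiliary subunits, transporters of GABA and its precursors, and kinases of the cotransporters. In wild type KA 1 rose and 1 fell, with a median of -0.08. Of all genes 3.48 percent rose and 3.42 percent fell, with a median of 0.01. Trak2, an adaptor for transport along microtubules, rose by 0.49 (SE 0.09, limma adjusted p = 0.00255). Glul, the glutamine synthetase of astrocytes, fell by 0.33 (SE 0.06, limma adjusted p = 0.00293).

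In the fosB-null mice 0 of the 26 members passed for KA against saline in limma, beside 0.762 percent of all genes (152 genes, and 476 with the replicate number as a block, when 0 members passed as well). At an unadjusted p under 0.05 there were 2 members, Gabrd and Abat, beside 12.5 percent of all genes. Arrays did not overlap for 5 members beside 17.3 percent of all genes, 3 higher (7.71 percent) and 2 lower (9.57 percent). The members' median was -0.06 and that of all genes -0.01.

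Gabrd was at 9.41, 9.16 and 8.96 on the fosB-null saline arrays and at 8.98, 8.82 and 8.87 on the KA arrays. The groups overlapped by 1 saline array. Its difference was -0.28 (SE 0.10, limma adjusted p = 0.231). Erbb4 was at 11.06, 11.19 and 11.18 with saline and at 11.03, 11.02 and 11.13 with KA, which overlapped, for a difference of -0.08 (95% interval -0.26 to 0.09). Slc12a5 was at 11.95, 11.70 and 11.86 and then at 11.71, 11.68 and 11.80, again overlapping, for -0.11 (-0.26 to 0.05).

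Gad2 was at 11.37, 11.44 and 11.39 on the fosB-null saline arrays and at 11.45, 11.58 and 11.48 on the KA arrays, just without overlap, for a difference of 0.10 (95% interval -0.06 to 0.27). Abat was at 11.99, 11.94 and 12.01 with saline and at 11.97, 11.62 and 11.65 with KA. Replicate 1 of KA stood among the saline arrays. The difference was -0.24 (SE 0.08, limma adjusted p = 0.232), and without that array it was -0.35 (adjusted p = 0.0227). With the array set, the split of arrays by deposited median and replicate 1, as a block it was -0.09 (adjusted p = 0.783). Gabrg1 differed by -0.18 (95% interval -0.72 to 0.35).

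In the fosB d/d mice 0 members passed for KA in limma, beside 0.461 percent of all genes. With an unadjusted p under 0.05 there were 4 members (Gabrd, Gad2, Abat and Erbb4) beside 12.2 percent, and arrays did not overlap for 5 beside 16 percent, 2 higher (7.33 percent) and 3 lower (8.71 percent). The members' median was -0.03. Gad2 was at 11.16, 11.39 and 11.42 on the saline arrays and at 11.60, 11.64 and 11.64 on the KA arrays. Every KA array was above every saline array, as in wild type. The difference was 0.30 (SE 0.08, limma adjusted p = 0.106), and with the replicate number as a block it passed (SE 0.06, limma adjusted p = 0.024), when 416 genes passed in all against 92 without it.

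Gabrd in fosB d/d was at 9.13, 9.18 and 9.11 with saline and at 8.92, 8.74 and 8.90 with KA, without overlap, for -0.29 (SE 0.10, limma adjusted p = 0.237). Erbb4 was at 11.20, 11.28 and 11.36 and then at 11.04, 11.12 and 11.10, also without overlap, for -0.19 (95% interval -0.37 to -0.02). Slc12a5 differed by -0.06 (-0.22 to 0.09), Abat by -0.20 (-0.38 to -0.03) and Gabrg1 by -0.24 (-0.77 to 0.30).

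**Figure D3:**
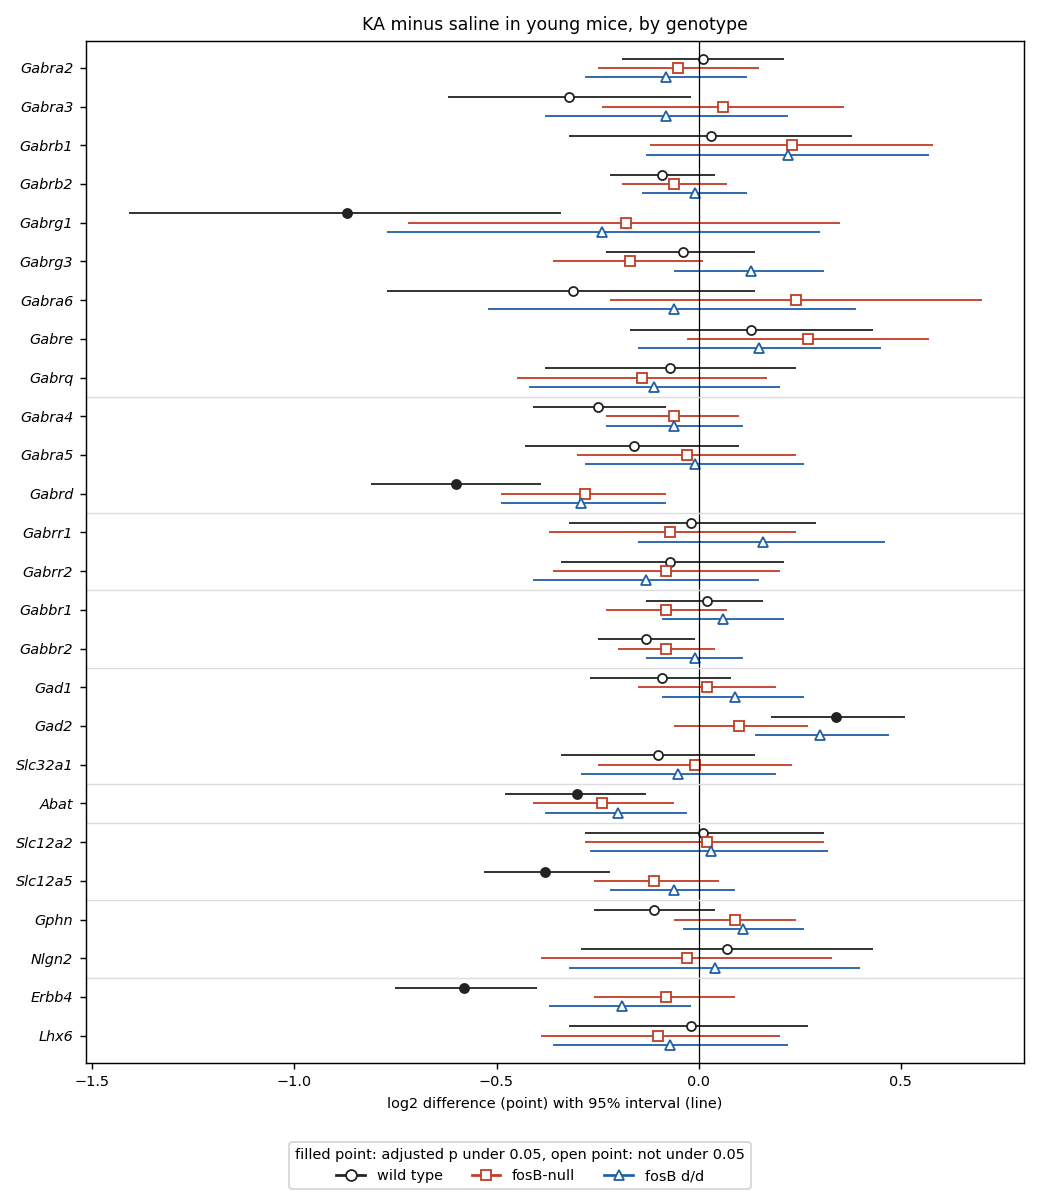
Log2 difference of KA from saline (horizontal axis) for the 26 members, grouped by role, in wild type (black circles), fosB-null (red squares) and fosB d/d (blue triangles), each from 3 against 3 arrays, with 95% intervals as lines. Filled points, at an adjusted p under 0.05, are those of wild type for Gabrg1 (-0.87), Gabrd (-0.60), Gad2 (0.34), Abat (-0.30), Slc12a5 (-0.38) and Erbb4 (-0.58). For Erbb4 the wild type interval (-0.75 to -0.40) lies left of both mutant intervals.

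The difference of these responses was tested itself, as an interaction. For fosB-null against wild type 0 members passed in limma, beside 0.176 percent of all genes, and 4 had an unadjusted p under 0.05 beside 13.7 percent. Erbb4 had the smallest p: its response was 0.49 higher in fosB-null (95% interval 0.24 to 0.74, limma adjusted p = 0.0932). It passed with the replicate number as a block (0.49, limma adjusted p = 0.017), with the array set as a block (0.55, adjusted p = 0.018) and with median centring (0.63, adjusted p = 0.0395). Over all genes these gave 394, 224 and 45 calls against 35. The replicate block leaves the array set in this contrast. Replicates 2 and 3 of fosB-null KA lay in another set than those of the other groups compared. With the array set as a block, they are linked to those groups only through replicate 1 of the mutant KA groups. Slc12a5 gave 0.27 (0.06 to 0.49), Gabrd 0.31 (0.02 to 0.61) and Gad2 -0.24 (-0.48 to -0.01), with limma adjusted p of 0.25 to 0.344. For Gabrg1 it was 0.69 with an interval of -0.07 to 1.45, and for Abat 0.06 (-0.18 to 0.31).

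For fosB d/d against wild type 0 members passed in limma, beside 0.0301 percent of all genes, and 4 had an unadjusted p under 0.05 beside 7.95 percent. Erbb4 gave 0.38 (95% interval 0.14 to 0.63, limma adjusted p = 0.362), Slc12a5 0.31 (0.10 to 0.53, adjusted p = 0.402), Gabrd 0.31 (0.02 to 0.61) and Gphn 0.21 (0.00 to 0.43). Gad2 gave -0.04 (-0.27 to 0.19). Both interactions share the wild type arrays, so their values are given side by side and not as 2 findings.

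The arrays of differing median bear on these contrasts. In the mutants replicates 2 and 3 had a deposited median of 8.33 or more with saline and of 8.11 or less with KA, so array set and treatment cannot be told apart there except through replicate 1. Within wild type the replicate 1 pair and the mean of replicates 2 and 3 gave -0.57 and -0.58 for Erbb4, -0.53 and -0.63 for Gabrd, and -0.44 and -0.35 for Slc12a5. For the other members that passed they gave 0.28 and 0.38 (Gad2), -0.25 and -0.33 (Abat), and -0.78 and -0.92 (Gabrg1). Each of these 6 members kept its sign across both sets in wild type. This outcome was fixed, because members whose saline and KA arrays do not overlap must keep their sign. In fosB-null they gave -0.03 and -0.11 for Erbb4, -0.43 and -0.21 for Gabrd, and -0.23 and -0.04 for Slc12a5. In fosB d/d they gave -0.16 and -0.21 for Erbb4, -0.21 and -0.32 for Gabrd, and -0.12 and -0.03 for Slc12a5. The sets differed more for Abat and Gabrg1: Abat gave -0.02 and -0.34 in fosB-null, and Gabrg1 gave -0.39 and -0.08 in fosB-null and 0.21 and -0.46 in fosB d/d. The sign was the same in both sets for 19 of 26 members in wild type, 17 in fosB-null mice and 15 in fosB d/d mice. The same count over all genes was not made, so these numbers have no background to be judged by.

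Among KA-treated mice, 0 members passed between mutant and wild type in limma. In fosB-null this stands beside 0.792 percent of all genes, with 6 members at an unadjusted p under 0.05 (13.3 percent of all genes) and 7 without overlap (16.4 percent), 6 higher (6.12 percent) and 1 lower (10.3 percent). Erbb4 was higher by 0.26 (95% interval 0.09 to 0.44), Gabrd by 0.26 (0.05 to 0.47), Gphn by 0.21 (0.06 to 0.36) and Slc12a5 by 0.17 (0.02 to 0.32). Gad2 was the member that did not overlap below wild type, at -0.18 (-0.35 to -0.02). With the replicate number as a block, 3 members passed: Erbb4 (limma adjusted p = 0.0242), Gphn (0.0303) and Gabrg1 (0.61, adjusted p = 0.0326). Over all genes 158 passed without the block and 716 with it. After KA, replicates 2 and 3 of wild type and of fosB-null lay in different array sets, which that block leaves in the contrast. With the array set as a block 0 members passed, with adjusted p of 0.0505 for Erbb4, 0.201 for Gphn and 0.0542 for Gabrg1.

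In fosB d/d against wild type after KA 0 passed in limma beside 0.687 percent, 6 had an unadjusted p under 0.05 beside 12.3 percent, and 8 were higher (5.85 percent) and 0 lower (8.16 percent) without overlap, beside 14 percent in either direction. Erbb4 was higher by 0.29 (95% interval 0.11 to 0.46), Slc12a5 by 0.25 (0.09 to 0.40) and Gphn by 0.19 (0.04 to 0.34). Both of these comparisons share the 3 wild type KA arrays. Outside the members, Npy was lower after KA in fosB-null, at -0.66 against wild type (SE 0.14, limma adjusted p = 0.0454), and so was Trak2, at -0.42 (SE 0.09, limma adjusted p = 0.033); Npy passed under 7 and Trak2 under 6 of 14 other settings.

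Markers of other cell types were compared between genotypes in the same way. Of 5 dentate granule cell markers 0 passed with saline in either mutant. In fosB-null the list median against wild type was 0.28 with saline and 0.37 after KA. In fosB d/d it was -0.03 with saline and 0.24 after KA. After KA 1 was higher in fosB-null than wild type, Dsp at 0.80 (limma adjusted p = 0.0167, kept under 11 of 14 other settings), and 0 passed in fosB d/d. Their mean signal was 10.18 to 10.37 with saline and 9.77 to 10.08 with KA in fosB-null, where 1 of the 5 fell (Tdo2, a call kept under 5 of 13 other settings). In fosB d/d mice it was 9.92 to 9.98 with saline and 9.69 to 9.87 with KA, where 0 of the 5 passed. The wild type arrays were at 9.98 to 10.08 with saline and at 9.41 to 9.46 with KA. The part of these levels in the genotype values of the members was not tested.

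Of 5 astrocyte markers 1 rose with KA in each mutant, Gfap, the filament protein of reactive astrocytes, by 1.32 in fosB-null mice and by 1.27 in fosB d/d mice, with list medians of 0.32 and 0.12. Gja1, a gap junction protein of astrocytes, was higher after KA in fosB-null (0.48, limma adjusted p = 0.0456) and in fosB d/d (0.53, adjusted p = 0.0283) against wild type, with list medians of -0.15 and -0.21. The Gja1 calls held under 6 and 8 of 14 other settings. Of 5 microglial markers, Cx3cr1 differed by 0.18 in wild type, 0.15 in fosB-null mice and -0.02 in fosB d/d mice and did not pass. P2ry12 fell in fosB-null, at -0.59 (limma adjusted p = 0.0212, kept under 6 of 14 other settings). The median of the 5 microglial markers there was 0.15, in the other direction. Of 4 oligodendrocyte markers Mobp fell in fosB-null, at -0.40 (limma adjusted p = 0.0461, kept under 5 of 14), with list medians of -0.27 there and -0.12 in fosB d/d mice, where 0 passed. The part of these markers in the genotype values was not tested.

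Without KA, 0 members differed between genotypes at the threshold. In fosB-null against wild type with saline, beside 0.0802 percent of all genes in limma, 1 member (Erbb4) had an unadjusted p under 0.05 beside 8.77 percent, and 3 were lower and 0 higher without overlap, beside 7.98 percent lower and 5.56 percent higher of all genes (13.5 percent in all). Erbb4 was at 11.06 to 11.19 in fosB-null and at 11.26 to 11.44 in wild type, a difference of -0.23 (95% interval -0.41 to -0.05, limma adjusted p = 0.422). Abat (-0.07) and the dim Gabra6 (-0.43) were the other two.

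In fosB d/d against wild type with saline 0 members passed in limma (0.01 percent of all genes), 0 had an unadjusted p under 0.05 (1.82 percent) and 1, Slc12a5, was lower without overlap and 0 were higher, beside 3.84 percent lower and 2.79 percent higher of all genes (6.63 percent in all). Slc12a5 was at 11.85 to 11.90 against 11.93 to 11.95, and its difference was -0.07 (95% interval -0.22 to 0.09).

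In the aged mice 0 members passed in any of 4 limma comparisons, and at most 0.0351 percent of all genes did. For fosB-null with epilepsy against wild type 0 percent of all genes passed, 0 members had an unadjusted p under 0.05 (3.37 percent of all genes), and 1, Gad1, was lower without overlap and 0 were higher, beside 2.34 percent lower and 3 percent higher (5.34 percent in all). Gad1 was at 11.75 on all 3 aged wild type arrays and at 11.72, 11.69 and 11.57 on the epileptic fosB-null arrays. The difference was -0.09 (95% interval -0.24 to 0.07, limma adjusted p = 1), about the size of the spread of the epileptic group (SD 0.08).

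For the 6 members that passed for KA in young wild type, the intervals in aged epileptic fosB-null mice included 0. Gabrd was at 9.31, 9.34 and 9.16 there and at 9.24, 9.26 and 9.37 in aged wild type, which overlapped, for -0.02 (95% interval -0.20 to 0.17). Slc12a5 differed by -0.08 (-0.22 to 0.07), Abat by -0.03 (-0.18 to 0.13) and Gad2 by -0.07 (-0.45 to 0.32). Gad2 spread widely, with replicate 1 at 11.28 in wild type and 11.17 in the epileptic group and the other arrays at 11.64 to 11.76. Erbb4 was at 11.38, 11.47 and 11.47 in wild type and at 11.14, 11.26 and 11.47 in the epileptic group, for -0.15 (-0.34 to 0.05).

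For aged fosB-null without epilepsy against wild type, with 2 against 3 arrays, 0 members passed in limma beside 0.0351 percent of all genes, 1 (Gabra6) had an unadjusted p under 0.05 beside 11.2 percent, and 5 did not overlap beside 31.5 percent, 3 higher (14.8 percent) and 2 lower (16.6 percent). Gabra6 was higher by 0.30 (95% interval 0.07 to 0.53, limma adjusted p = 0.298) at a signal of 6.61 to 6.68 against 6.27 to 6.44. Slc12a2 was at 10.95 and 11.12 against 10.51, 10.85 and 10.78, while the choroid marker mean was 10.71 and 11.26 against 8.85, 9.38 and 8.63. Its difference was 0.32 (-0.05 to 0.69), and the part of the choroid markers in it was not tested. Erbb4 was lower without overlap at -0.11 (-0.33 to 0.11).

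For aged fosB d/d against wild type, also 2 against 3, 0 passed in limma beside 0.01 percent of all genes, 0 had an unadjusted p under 0.05 (10.3 percent of all genes) and 7 did not overlap beside 27.2 percent, 2 higher (15 percent) and 5 lower (12.2 percent). Gabrr2 had the smallest p, at -0.20 (95% interval -0.42 to 0.02). For fosB-null with against without epilepsy, 3 against 2, 0 members and 0 percent of all genes passed in limma. With an unadjusted p under 0.05 there were 0 members (9.77 percent of all genes), and 0 were without overlap (26.9 percent, 14.4 higher and 12.4 lower). Gabra6 gave -0.22 (-0.45 to 0.01). In both groups of 2 the deposited medians were lower than in both groups of 3, so array level and group cannot be told apart.

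**Figure D4:**
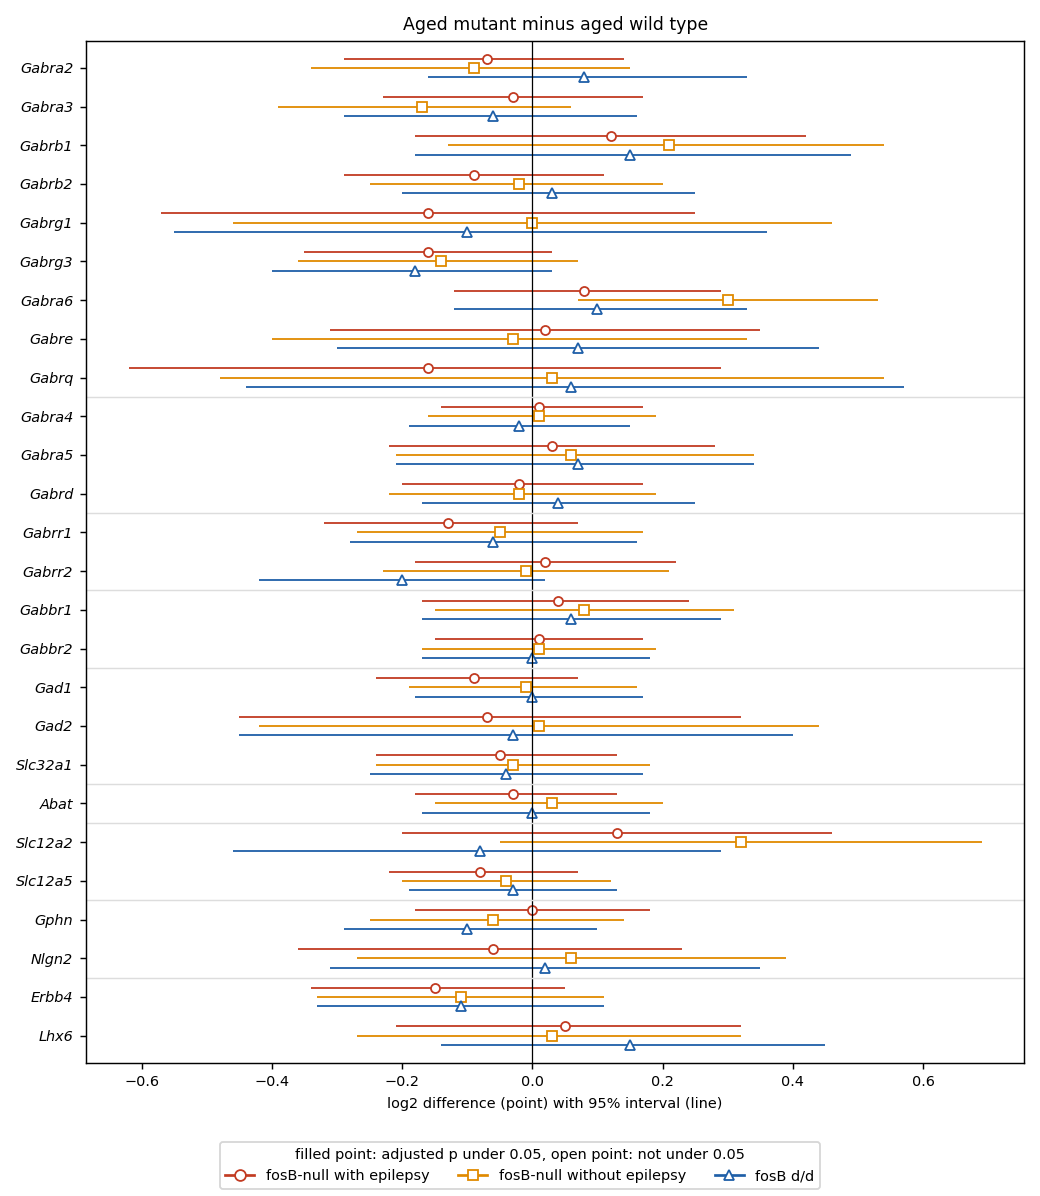
Log2 difference from aged wild type (horizontal axis) for the 26 members, grouped by role, in epileptic fosB-null (red circles, 3 arrays), non-epileptic fosB-null (orange squares, 2) and fosB d/d (blue triangles, 2), with 95% intervals as lines. No point is filled, since none had an adjusted p under 0.05, and the interval of Gabra6 in fosB-null without epilepsy (0.07 to 0.53) is the one that leaves out 0.

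Many members also followed the replicate number. Replicate 1 was below the mean of replicates 2 and 3 in all 6 young groups for 11 members and above it in all 6 for 4 members, 57.7 percent of the members together against 31.4 percent of all genes. The shift was -0.48 to -0.30 for Nlgn2, -0.52 to -0.23 for Gabrb1 and -0.39 to -0.17 for Gabra5. It was 0.20 to 0.87 for Gabrg1 and 0.14 to 0.28 for Slc32a1. For Nlgn2 and Slc32a1 the shift was larger than the KA difference in each genotype (-0.03 to 0.07 and -0.10 to -0.01). Each young group holds 1 array of replicate 1. What the replicate number stands for is not in the labels.

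Several receptor genes sit side by side on their chromosomes in the GRCm38.p6 gene order. Gabrg1, Gabra2, Gabra4 and Gabrb1 form a run with 1 other coding gene between Gabra2 and Gabra4, and Gabra6 neighbours Gabrb2, Gabrr1 neighbours Gabrr2, and Gabra5 neighbours Gabrg3. In wild type KA Gabrg1 gave -0.87 beside 0.01 for Gabra2, and Gabra4 gave -0.25 beside 0.03 for Gabrb1. No test of neighbours was made.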

How the data were processed

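The authors deposited log2 signals of 35557 probe sets for each array; per the submitters' processing notes the authors used Affymetrix Expression Console, whose version and normalization algorithm were not given in the sources used here. Per the labels' protocols, 100 ng of total RNA was amplified for each array. Raw intensities were not analysed here, and the number of arrays limits the precision.

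From these values, the 28 arrays were quantile-normalized together in R 4.3.3. Of the probe sets 21789 had 1 symbol in the platform table, 1621 several and 12147 none; for the 999 genes with more than 1, the probe set of highest mean was used, which left 19938 genes. Identifiers matched all 26 members in the RefSeq gene table, with 0 changed symbols. Promoters came from RefSeq for GRCm38.p6 and matched 23 of the 26. Groups follow titles and treatment labels.

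Comparisons were contrasts in limma 3.58.1, tested on simulated data, with 1 fit for the 18 young and 1 for the 10 aged arrays, empirical Bayes moderation and no block. Benjamini-Hochberg adjustment ran over all genes within each of 13 comparisons, with a threshold of 0.05. Non-overlap means that every array of one group lies beyond every array of the other. All members were to be named, with up to 4 passing genes of each further list per comparison. The members and lists were chosen with earlier results of these data known. Fold values are 2 to the power of the log2 difference.

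What the shared replicate numbers mean is not stated. Whether arrays of the same number deviate together from their groups was checked by correlation, before any blocked result was seen. With 3 pairs each, all above 0.1, the numbers paired the arrays for KA in fosB-null (0.23 to 0.38) and in fosB d/d (0.26 to 0.36), for fosB d/d against wild type with saline (0.40 to 0.77), for fosB-null against wild type after KA (0.35 to 0.48) and for aged epileptic fosB-null against wild type (0.21 to 0.50). Alternatives were the deposited scale, median centring, the replicate block, leaving out the dimmest 30 percent of genes, averaging probe sets, robust moderation with a trend, fits of the compared groups alone, the array set as a block (young) or age as a covariate (aged), and each array left out. Fits of the 8 young arrays of the higher median, and all alternatives for genes outside the 26 members, were chosen after seeing the data.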

Additional observations from a re-analysis of the deposited data

Results flagged for a closer look

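In 7 cases every mutant array lay on one side of the wild type mean in young saline mice. In aged mice without epilepsy every mutant array lay on the other side. The share of all genes with such a pattern was not computed, so the count has no background. The difference between the ages was not tested in any of these cases. Age also cannot be told apart from the Y-linked signal, whose mean was 9.53 to 10 in young and 5.19 to 5.50 in aged arrays. In fosB-null the mean difference from wild type was 0.16 in young and -0.09 in aged mice for Gabra2, and 0.07 and -0.14 for Gabrg3. For Gabra6, a dim probe set, it was -0.43 and 0.30, and for Abat it was -0.07 and 0.03. In fosB d/d it was -0.09 and 0.04 for Gabrd, and -0.05 and 0.06 for Gabbr1. For Slc12a2 it was 0.21 and -0.08, with choroid marker means of 10.82 to 11.19 in the young fosB d/d and 8.60 to 8.70 in the aged fosB d/d arrays (8.80 to 11.04 and 8.63 to 9.38 in wild type), whose part in the values was not tested. None of these differences had an adjusted p under 0.05 at either age in limma.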

How the results depend on the processing

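Of the 26 members, 6 passed for KA in wild type, 3 on the deposited scale (511 genes in all against 1375), 2 in a fit of the compared groups alone (503 genes) and 3 to 5 with 1 array left out; the 3 were without wild type KA replicate 3. All genes passing numbered 1013 without wild type KA replicate 3, 861 without wild type KA replicate 2 and 711 without wild type saline replicate 2. The count was 7 with the replicate block (2880 genes), where replicates did not pair (-0.17 to 0.25), and 7 with the array set as a block (3504 genes). Erbb4 and Gabrd passed under every alternative run. Slc12a5 was lost in the fit of the compared groups. Gad2 was lost there (adjusted p = 0.109), on the deposited scale (0.324) and with median centring (0.0662), Abat under the same alternatives (0.111, 0.21 and 0.107), and Gabrg1 likewise (0.0601, 0.0514 and 0.0508). Gabra4 passed with median centring (-0.31), with either block (-0.25) and with trended and robust moderation (-0.25). For the 12 other comparisons the count was 0, except as follows. For KA in fosB-null it was 0 to 1 with 1 array left out, the 1 being Abat without fosB-null KA replicate 1. For KA in fosB d/d it was 1 with the replicate block. For the response of fosB-null against wild type it was 1, Erbb4, with median centring (0.63), the replicate block (0.49) and the array set block (0.55). After KA it was 3 in fosB-null with the replicate block, and in fosB d/d it was 1 with the replicate block (Erbb4, 0.29, adjusted p = 0.0199) and 2 with the array set block (Erbb4 and Abat). The replicate block moved no other count of members. Counts over all genes moved more. With every array of the compared groups kept, they ran from 12 to 476 for KA in fosB-null (152 as reported). For KA in fosB d/d they ran from 0 to 416 (92), and for the differences in response from 8 to 394 and 2 to 165 (35 and 6). For the mutants with saline they ran from 0 to 239 and 0 to 3 (16 and 2). The fit of the 8 young arrays of the higher median, which left out replicate 1, gave 1044 and 1 there. For the mutants after KA they ran from 3 to 716 and 0 to 526 (158 and 137). In the aged mice they ran from 0 to 1 for epileptic fosB-null against wild type (0), 0 to 23 for fosB-null without epilepsy (7), 0 to 17 for fosB d/d (2) and 0 to 12 for fosB-null with against without epilepsy (0). With 1 array left out the extremes were 22 and 388 for KA in fosB-null, 4 and 143 for KA in fosB d/d, 6 and 154 and then 2 and 35 for the differences in response, and 36 and 244 and then 35 and 153 for the mutants after KA, and 2 and 28 and then 0 and 3 with saline. In the aged mice the count for epileptic fosB-null against wild type was 36 without epileptic replicate 1, 43 without epileptic replicate 2 and 0 otherwise. With against without epilepsy it was 20 without epileptic replicate 1 and 0 otherwise. For fosB d/d it was 16 without wild type replicate 1 and 0 otherwise, and for fosB-null without epilepsy it was 0 in each such fit. Of 4992 single values for members under alternatives, 4954 kept their side of the threshold. Most of these values were of comparisons in which 0 members had passed. Among values that passed in the main fit or under the alternative, 0 changed sign. Sign changes of values that passed in neither were not counted. The cause of the changes in all these counts was not tested. Outside the members, Npy and Gfap passed for KA in wild type under all 15 alternatives run, and Trak2 and Glul under 13.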
